A study of Mus musculus with 8 samples.

Results

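The genes that encode the proteasome were followed in the livers of alcohol-fed and pair-fed mice of 2 genotypes. The members were taken by gene symbol, as every symbol that starts with Psma, Psmb, Psmc, Psmd or Psme followed by a number and that had a mean of at least 10 counts over the libraries. Of 19267 genes in the count table, 46 carried such a symbol and 45 reached the mean count. Psma8, the alpha subunit used in spermatogenesis, was left out with a mean of 2.38 counts, and the pseudogene Psma5-ps stood exactly at the limit with a mean of 10 counts. The members were 14 genes of the constitutive core particle, 17 genes of the regulatory particle, 5 inducible genes and 9 genes of other kinds. All 45 also passed the low-count filter of the fit, so none was left untested.

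The 8 liver RNA libraries formed 4 groups of 2, which crossed genotype with diet and are called WT-Control, WT-EtOH, Elf4-/- Control and, for the alcohol-fed mutants, Elf4-/- EtOH. All mice were C57BL/6 males, sampled at 9 weeks of age after 21 days on a Lieber-DeCarli liquid diet, a nutritionally complete liquid feed that either carries 5% (w/v) alcohol (EtOH) or replaces its calories with maltose dextrin (Control). The mice labelled Elf4fl/fl-Villin-Cre, here Elf4-/-, carried floxed alleles of Elf4, an ETS-family transcription factor, and a Cre recombinase driven by the villin promoter. That promoter is active in intestinal epithelium, so the deletion was not aimed at hepatocytes, and per the study's methods the WT mice carried the Cre as well. Neither labels nor methods state whether each library came from a separate animal, so every p-value below measures only the spread between these libraries.

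The proteasome degrades proteins that have been tagged with ubiquitin. Its core particle is a barrel of stacked rings of alpha and beta subunits, and the beta subunits encoded by Psmb5, Psmb6 and Psmb7 carry the chymotrypsin-like, caspase-like and trypsin-like activities. The regulatory particle caps the barrel: a ring of ATPases (Psmc genes) unfolds the substrate and opens the gate, and the non-ATPase subunits (most Psmd genes) bind ubiquitin chains, remove them and hold the lid together. Under interferon, Psmb8, Psmb9 and Psmb10 encode replacements for Psmb5, Psmb6 and Psmb7 respectively, giving the immunoproteasome, and Psme1 and Psme2 encode the PA28 activator that can cap the same barrel. In liver, loss of proteasome activity is a known feature of chronic alcohol feeding.

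The libraries held 6171051 to 9157362 counts over 16999 to 18297 detected genes. Genes of the mitochondrial genome took 23.4% and 33.7% of counts in WT livers on Control and 10.8% and 12.5% on EtOH, and in Elf4-/- livers 18.5% and 18.7% on Control and 18.3% and 22.1% on EtOH. Levels are therefore given as CPM, the counts scaled to a common library size after TMM normalisation, a scaling under which the median log2 fold change over all 13993 genes tested was 0.01 for diet in either genotype. Of 44 listed cell type markers, 39 were tested, and EtOH raised 20 and lowered 1 of them in WT and raised 1 and lowered 0 in Elf4-/- (edgeR, adjusted p below 0.05). Over all genes tested, 10.8% were called higher and 10.8% lower in WT, against 1.71% and 1.18% in Elf4-/-. The summed CPM of the 8 Kupffer cell and macrophage markers was 188 to 255 in WT-Control, 578 to 639 in WT-EtOH, 175 to 181 in Elf4-/- Control and 234 to 243 in Elf4-/- EtOH. The sum of the 7 hepatocyte markers in the table was 55350 to 77240 CPM in WT-Control, 33082 to 40798 in WT-EtOH, 65202 to 72948 in Elf4-/- Control and 41599 to 54918 in Elf4-/- EtOH. Of these 7, 1 was called lower in WT and 0 in Elf4-/- (edgeR), where 3 had a positive and 4 a negative log2 fold change. The 5 sinusoidal endothelium markers summed to 44.0 to 74.4, 206 to 252, 110 to 112 and 104 to 172 CPM in the same order of groups, and the 4 stellate cell markers to 23.7 to 57.6, 216 to 283, 76.1 to 102.8 and 174 to 284. The lymphocyte markers summed to 14 to 18.1, 40.1 to 41.6, 11.9 to 19.3 and 18.8 to 22.7 CPM, the myeloid and dendritic cell markers to 42.9 to 48.9, 126 to 146, 26.9 to 50.9 and 65.0 to 65.8, and the bile duct markers to 7.18 to 10.6, 7.24 to 9.36, 5.22 to 8.71 and 6.85 to 7.03. No marker in the table was at 0 in every library. In bulk tissue a lower share of one cell type and less RNA per cell cannot be told apart, and the part of cell makeup in the proteasome values was not tested.

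Alcohol feeding was accompanied by higher transcript levels of the constitutive proteasome genes in both genotypes, whereas the summed level of the inducible genes overlapped between diets. The libraries hold RNA only, so proteasome protein and activity were not read. The 14 core genes together summed to 1004 and 1218 CPM in the WT-Control libraries and to 1619 and 1608 CPM in the WT-EtOH libraries. In Elf4-/- mice the same sum was 1032 and 1097 CPM on the Control diet and 1648 and 1566 CPM on EtOH. The 17 regulatory particle genes summed to 872 and 899 CPM in WT and 798 and 842 in Elf4-/- livers on Control, and 1481 and 1483 in WT and 1519 and 1318 in Elf4-/- livers on EtOH. For both particles every EtOH library lay above every Control library of either genotype. The 5 inducible genes summed to 273 and 347 CPM on Control and 285 and 311 on EtOH in WT, and to 286 and 294 on Control and 289 and 360 on EtOH in Elf4-/-, and there the diet groups overlapped in both genotypes.

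**Figure D1:**
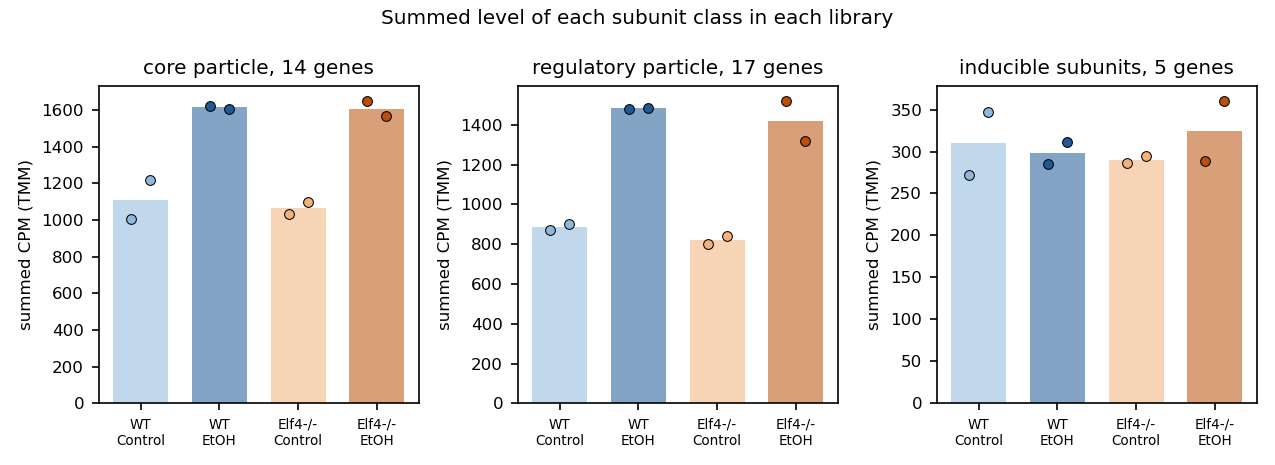
Summed CPM (counts scaled to a common library size by TMM, axis from 0) of each subunit class in every library, with points for the 2 libraries of a group and bars for their mean. Core and regulatory particle sums were higher in all EtOH libraries than in any Control library, with core sums of 1566 to 1648 against 1004 to 1218, whereas the inducible sums overlapped.

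In WT mice, 16 of the 31 core and regulatory particle genes were called higher on EtOH and 0 lower by edgeR's quasi-likelihood test at an adjusted p below 0.05, against 10.8% of all genes tested called higher and 10.8% called lower. Without adjustment, 20 of the 31 had p below 0.05 by edgeR, against 5090 of all 13993 genes tested. DESeq2 called 16, of which 15 were shared with edgeR, and its share over all genes is not given here. The split between particles was 5 of 14 core genes (median log2 fold change 0.52) and 11 of 17 regulatory particle genes (median 0.75). Within the core, 3 of 7 alpha ring genes (median 0.69) and 2 of 7 beta ring genes (median 0.30) were called. Within the regulatory particle the counts were 3 of 6 ATPase genes (median 0.60) and 8 of 11 non-ATPase genes (median 0.96). The CPM of 28 of the 31 genes did not overlap between diets with EtOH higher, against 34.1% of all genes. The number called depended on single libraries: it was 7 without WT-Control replicate 1, 14 without WT-Control replicate 2, 7 without WT-EtOH replicate 1 and 6 without WT-EtOH replicate 2, and 29 to 30 of the 31 genes kept a positive log2 fold change in these fits. Scaled by library totals alone, under which the median of all genes moved up by 0.43 on the log2 scale, 29 of the 31 were called higher. The share of all genes called under that scaling is not given here, and the 10.8% above does not apply to it.

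In Elf4-/- mice, 8 of the 31 genes were called higher on EtOH and 0 lower, against 1.71% of all genes called higher and 1.18% called lower in the same comparison. All 8 were among the 16 called in WT. Without adjustment, 26 of the 31 had p below 0.05 by edgeR, against 2966 of all 13993 genes tested. The log2 fold change was positive for all 31, against 7116 of the 13993. Its median was 0.53 for the core and 0.84 for the regulatory particle. The calls comprised 2 core genes, Psma1 and Psma6, and 6 regulatory particle genes, Psmd13, Psmd14, Psmd3, Psmd2, Psmc1 and Psmd4. The CPM of all 31 genes was higher in both EtOH libraries than in either Control library, against 25.8% of all genes. The calls were less stable than the direction: 0 genes passed without Elf4-/- Control replicate 1 (lowest adjusted p = 0.052 by edgeR), 0 without Elf4-/- Control replicate 2 (lowest 0.12), 3 without Elf4-/- EtOH replicate 1 and 14 without Elf4-/- EtOH replicate 2. When only the 4 Elf4-/- libraries were fitted, 1 gene, Psmd13, passed, and DESeq2 on all libraries called 13.

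**Figure D2:**
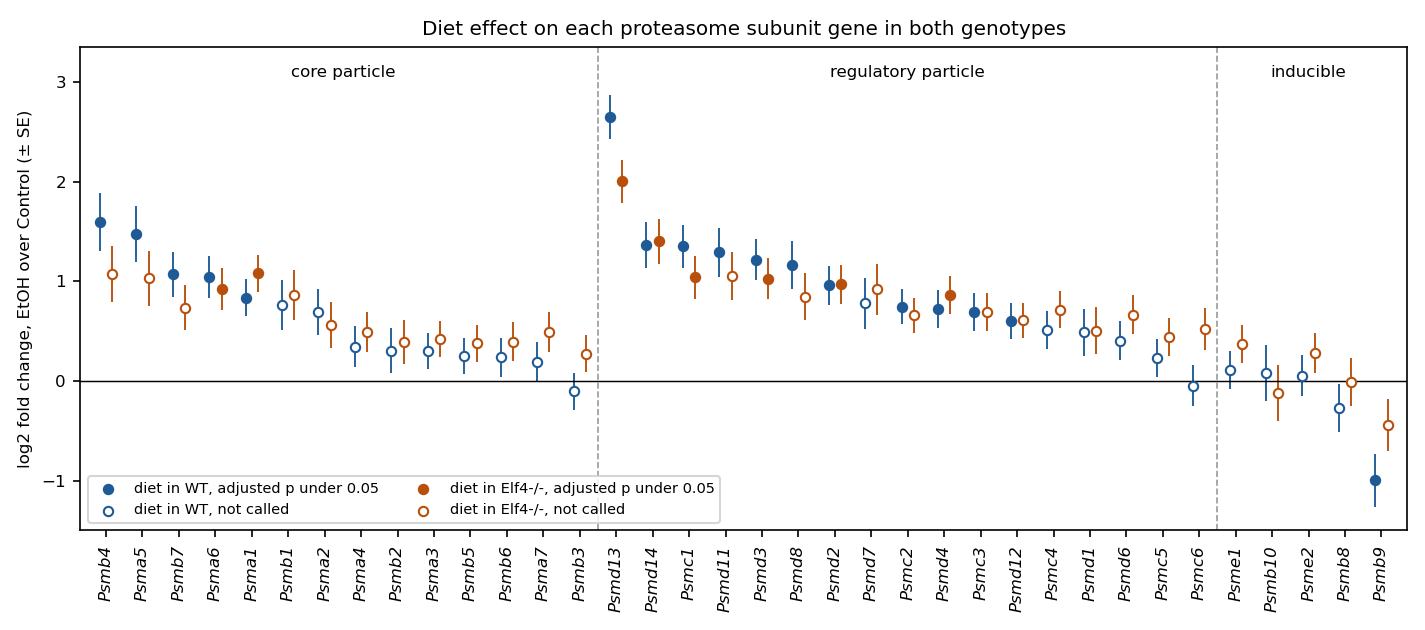
Log2 fold change of EtOH over Control with its standard error (bars) for the 36 constitutive and inducible subunit genes, ordered within each class by the value in WT, with WT in blue and Elf4-/- in orange and filled points for edgeR adjusted p below 0.05. The core and regulatory particle points lie above 0 except Psmb3 and Psmc6 in WT. Of the inducible genes, Psmb9 is called lower in WT, and Psme1 and Psme2 stand at 0.37 and 0.28 in Elf4-/-.

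Psmd13 had the largest diet effect of the subunits in either genotype. It encodes a scaffold subunit of the lid of the regulatory particle and lies on the plus strand at chr7:140881968-140898643 (mm10). Its CPM was 6.71 and 7.91 in the WT livers on Control against 50.7 and 41.3 on EtOH, and 7.58 and 6.71 in the Elf4-/- livers on Control against 29.6 and 28.0 on EtOH, from 36 to 74 counts per Control library and 186 to 405 per EtOH library. The EtOH libraries of each genotype stood far above all 4 Control libraries, and those of WT above those of Elf4-/-. The log2 fold change was 2.65 ± 0.22 (SE, n = 2 per group; edgeR adjusted p = 0.00045) in WT, a 6.27-fold difference, and 2.0 ± 0.21 (edgeR adjusted p = 0.0046) in Elf4-/-, a 4.01-fold difference. By p-value it ranked 9 of 13993 genes in each genotype's comparison. The annotation gives Psmd13 342 of its 3377 exon bases in common with Sirt3 on the other strand. How strand was treated in the counting is not given in the sources used here, so reads over that stretch cannot be assigned with certainty. Sirt3 itself stood at 124 and 128 CPM in WT-Control against 87.5 and 91.4 in WT-EtOH (log2 fold change -0.50 ± 0.19, edgeR adjusted p = 0.093), a direction opposite to that of Psmd13.

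Other lid and base subunits followed at smaller sizes. Psmd14, the metalloprotease that cuts ubiquitin chains off the substrate, was at 16.8 and 16.9 CPM in WT and 19.3 and 16.4 in Elf4-/- livers on Control, and 40.7 and 46.2 in WT and 56.1 and 38.5 in Elf4-/- livers on EtOH. Both EtOH groups lay above both Control groups, and the log2 fold change was 1.37 ± 0.23 in WT and 1.40 ± 0.22 in Elf4-/- (edgeR adjusted p = 0.0045 and 0.018). Psmc1, the ATPase Rpt2, was at 38.0 and 48.0 CPM in the WT livers on Control against 110 and 110 on EtOH, and 43.6 and 42.4 in the Elf4-/- livers on Control against 102 and 74.3 on EtOH. No EtOH library reached down to a Control library, with log2 fold changes of 1.35 ± 0.21 in WT and 1.04 ± 0.21 in Elf4-/- (by edgeR, adjusted p = 0.0038 and 0.036). Psmd11 and Psmd3, which build the lid, changed by 1.29 ± 0.25 and 1.22 ± 0.21 on the log2 scale in WT (edgeR adjusted p = 0.0073 and 0.0046). In Elf4-/- the values were 1.05 ± 0.24 for Psmd11, which fell just short of the threshold (edgeR adjusted p = 0.051), and 1.03 ± 0.20 for Psmd3 (adjusted p = 0.033). Psmd2, the large base scaffold that receives shuttle factors, rose by 0.96 ± 0.20 in WT and 0.97 ± 0.20 in Elf4-/- (edgeR adjusted p = 0.0095 and 0.034), and the ubiquitin receptor Psmd4 by 0.72 ± 0.19 and 0.86 ± 0.19 (adjusted p = 0.025 and 0.045). The remaining WT calls were Psmd8 (1.17), Psmc2 (0.75), Psmc3 (0.69) and Psmd12 (0.60) on the log2 scale. Psmd12 was no longer called by DESeq2 (adjusted p = 0.075, within 0.0041 to 0.19 over 13 alternatives).

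At the other end of the regulatory particle, the ATPase gene Psmc6 stood at 118 and 85.4 CPM in WT-Control against 97.5 and 99.2 in WT-EtOH, so the WT diets overlapped. In Elf4-/- it was 87.5 and 81.9 CPM on Control and 127 and 116 on EtOH, which did not overlap. The log2 fold changes were -0.05 ± 0.21 and 0.52 ± 0.21, and neither passed (edgeR adjusted p = 0.89 and 0.19). Psmc5, Psmd6 and Psmd1 also had smaller WT values of 0.23, 0.41 and 0.49 on the log2 scale, none of them called.

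In the core particle of WT mice the largest differences were in Psmb4 and Psma5. Psmb4, a structural beta subunit at chr3:94884093-94886961, was at 35.6 and 69.5 CPM in WT and 62.5 and 61.8 in Elf4-/- livers on Control, and 159 and 159 in WT and 145 and 117 in Elf4-/- livers on EtOH. The WT-Control libraries differed from each other by nearly as much as the lower of them measured, but both were below all EtOH libraries. Its log2 fold change was 1.60 ± 0.29 in WT (edgeR adjusted p = 0.0059) and 1.07 ± 0.28 in Elf4-/- (edgeR adjusted p = 0.072). Psma5, of the gated alpha ring, was at 14.4 and 26.1 CPM in the WT livers on Control against 60.9 and 51.5 on EtOH, and 19.5 and 26.7 in the Elf4-/- livers on Control against 44.8 and 49.1 on EtOH. Here too the diets did not overlap, and the log2 fold change was 1.47 ± 0.28 in WT and 1.03 ± 0.28 in Elf4-/- (edgeR adjusted p = 0.0075 and 0.074). The alpha ring genes Psma6 and Psma1 were called in both genotypes. Psma6 rose by 1.05 ± 0.21 and 0.92 ± 0.21 on the log2 scale (edgeR adjusted p = 0.0088 and 0.048), and Psma1 by 0.84 ± 0.18 and 1.08 ± 0.18 (adjusted p = 0.013 and 0.022).

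**Figure D3:**
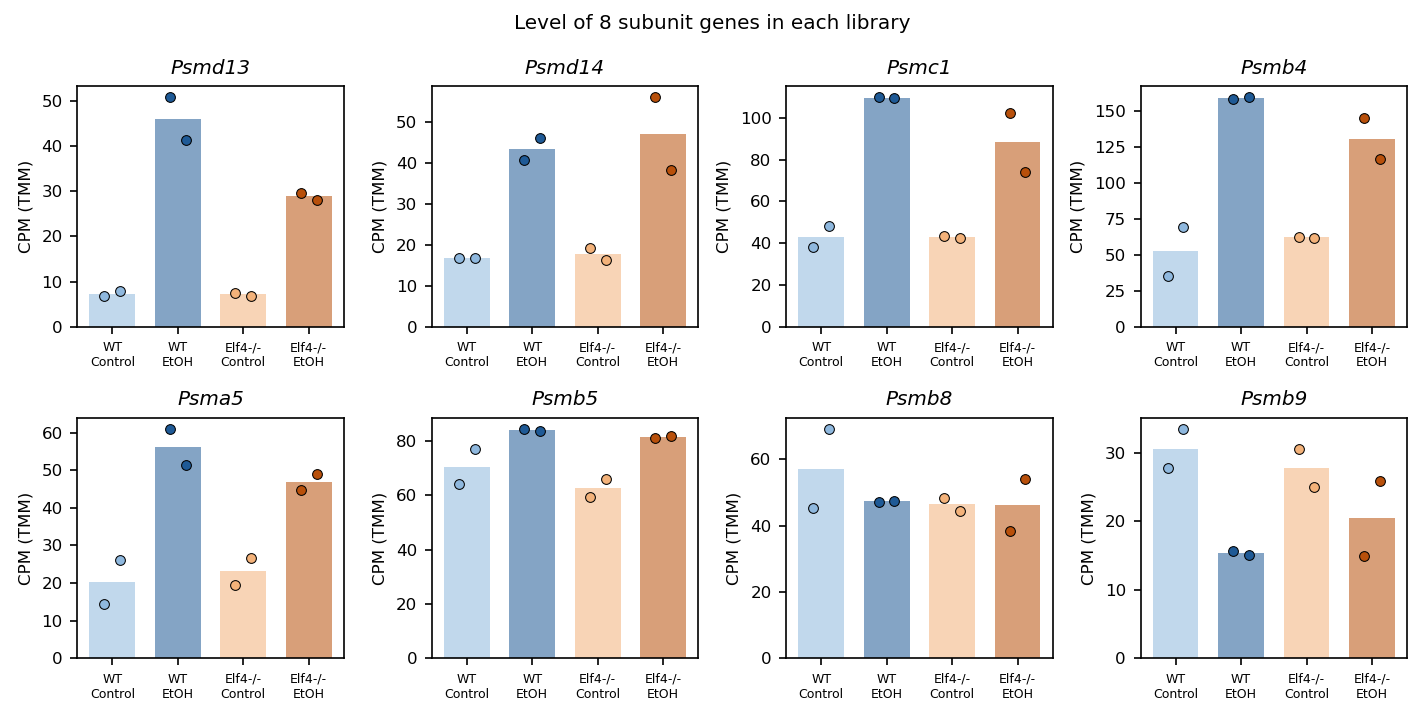
CPM (TMM-normalised, axis from 0 in each panel) of 8 subunit genes in each library, with points for the 2 libraries of a group and bars for their mean. Psmd13, Psmd14, Psmc1, Psmb4 and Psma5 are higher in every EtOH library than in any Control library, Psmb5 moves by less, Psmb8 overlaps between diets, and Psmb9 is lower in WT-EtOH (15.1 and 15.7) than in WT-Control (27.8 and 33.5).

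The 3 constitutive catalytic subunits did not move alike. Psmb7, the trypsin-like subunit, rose in WT from 45.7 and 69.2 CPM to 118 and 123 CPM, a log2 fold change of 1.07 ± 0.23 (edgeR adjusted p = 0.011). In Elf4-/- it went from 61.8 and 70.9 CPM to 115 and 106 CPM, or 0.74 ± 0.22, which did not pass (edgeR adjusted p = 0.10). Psmb7 shares 405 of its 3421 exon bases with Nek6 on the opposite strand, and Nek6 was at 0.30 ± 0.20 on the log2 scale for diet in WT (edgeR adjusted p = 0.32). Psmb5, the chymotrypsin-like subunit, was at 64.0 and 77.1 CPM in WT and 59.3 and 66.1 in Elf4-/- livers on Control, and 84.3 and 83.6 in WT and 81.1 and 81.6 in Elf4-/- livers on EtOH. The diets did not overlap, but the log2 fold changes of 0.25 ± 0.18 and 0.38 ± 0.18 did not pass (edgeR adjusted p = 0.35 and 0.27). Psmb6, the caspase-like subunit, had 0.24 ± 0.20 and 0.39 ± 0.20 (edgeR adjusted p = 0.42 and 0.28). Psmb3, a structural beta subunit, was the core gene with the lowest diet value, at 136 and 144 CPM in WT-Control against 136 and 125 in WT-EtOH (log2 fold change -0.11 ± 0.19, edgeR adjusted p = 0.72).

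None of the 5 inducible subunits was called higher on EtOH in either genotype by edgeR or DESeq2. By edgeR 10.8% of all genes were called higher in WT and 1.71% in Elf4-/-, so 0 of 5 is near the share of all genes. In WT 10.8% of all genes were also called lower. The median log2 fold change of the 5 was 0.05 in WT and -0.01 in Elf4-/-. It was -0.27 and -0.12 for the 3 catalytic genes and 0.08 and 0.33 for the 2 PA28 genes, in WT and Elf4-/- respectively. Psmb9, which replaces Psmb6 in the immunoproteasome and lies at chr17:34181987-34187764, was at 27.8 and 33.5 CPM in WT-Control against 15.7 and 15.1 in WT-EtOH. Every WT-EtOH value was below every WT-Control value, a log2 fold change of -0.99 ± 0.27 or 1.99-fold lower (edgeR adjusted p = 0.027). This was the only inducible gene called, and the call was lost when any of the 4 WT libraries was left out (adjusted p = 0.061 to 0.15) or scaling was by library totals, with or without mitochondrial genes; under full totals the median of all genes moved by 0.43 and Psmb9 stood at -0.56 (edgeR adjusted p = 0.18, the highest over 13 alternatives, with 0.0093 the lowest). In Elf4-/- Psmb9 was at 30.5 and 25.1 CPM on Control and 15.0 and 25.9 on EtOH, so that replicate 2 of Elf4-/- EtOH overlapped the Control libraries (log2 fold change -0.44 ± 0.26, edgeR adjusted p = 0.36). Without that library the value was -0.92 (edgeR adjusted p = 0.040, the lowest over 12 alternatives, with 0.87 the highest). Psmb9 has 212 of 3660 exon bases in common with Tap1 on the opposite strand, and Tap1 was at -0.36 ± 0.27 for diet in WT (edgeR adjusted p = 0.36) and -0.30 ± 0.27 in Elf4-/- (adjusted p = 0.57).

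Psmb8, the replacement for Psmb5, was at 45.3 and 69.2 CPM in the WT livers on Control against 47.2 and 47.6 on EtOH, and 48.5 and 44.5 in the Elf4-/- livers on Control against 38.3 and 54.1 on EtOH. The groups overlapped throughout, with log2 fold changes of -0.27 ± 0.24 and -0.01 ± 0.24 in WT and Elf4-/- respectively (by edgeR, adjusted p = 0.45 and 0.99), and scaling by library totals turned the WT value to 0.15. Psmb8 shares 498 of 3381 exon bases with the antisense gene Gm20496. Psmb10, the replacement for Psmb7, was at 34.5 and 42.9 CPM in WT and 40.8 and 43.1 in Elf4-/- livers on Control, and 41.6 and 40.3 in WT and 26 and 50.9 in Elf4-/- livers on EtOH. The Elf4-/- EtOH libraries bracketed all others, and the log2 fold changes were 0.08 ± 0.28 and -0.12 ± 0.28. The PA28 genes Psme1 and Psme2 had log2 fold changes of 0.11 ± 0.19 and 0.05 ± 0.20 in WT and of 0.37 ± 0.19 and 0.28 ± 0.20 in Elf4-/- (lowest edgeR adjusted p = 0.30). In Elf4-/- livers Psme1 was at 99.2 and 107 CPM on Control and 129 and 138 on EtOH, and Psme2 at 66.8 and 74.6 against 80.5 and 91.0, so for both the EtOH libraries lay above the Control libraries without overlap, whereas in WT the diets overlapped. In all 3 inducible catalytic genes and both PA28 genes, Elf4-/- EtOH replicate 1 lay below replicate 2.

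A ratio of an inducible subunit to the constitutive subunit it replaces, taken within a library and per kilobase of transcript, does not depend on the scaling between libraries. It was computed as a description, without a test. Psmb9 over Psmb6 was 0.118 and 0.123 in the WT livers on Control against 0.0534 and 0.0497 on EtOH, and 0.138 and 0.108 in the Elf4-/- livers on Control against 0.0544 and 0.0804 on EtOH. The Control mean was 2.34 times the EtOH mean in WT and 1.82 times in Elf4-/-. Psmb10 over Psmb7 was 0.668 and 0.548, 0.311 and 0.290, 0.584 and 0.538, and 0.20 and 0.426 in the same order, with Control means 2.02 and 1.79 times the EtOH means. In Elf4-/- the EtOH over Control ratio of the means, 0.558, became 0.356 without Elf4-/- EtOH replicate 2 and 0.760 without replicate 1. In this pair the constitutive gene changed more than the inducible one. The diet log2 fold change was 1.07 for Psmb7 and 0.08 for Psmb10 in WT, and 0.74 and -0.12 in Elf4-/-. Psmb8 over Psmb5 was 0.391 and 0.496, 0.309 and 0.314, 0.451 and 0.371, and 0.260 and 0.366, with factors of 1.42 and 1.31. For all 3 pairs no EtOH library overlapped a Control library of the same genotype, although the upper Elf4-/- EtOH value of Psmb8 over Psmb5 (0.366) came close to the lower Control value (0.371). The Elf4-/- mean over the WT mean on EtOH was 1.31, 1.04 and 1.01 for the 3 ratios in this order.

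**Figure D4:**
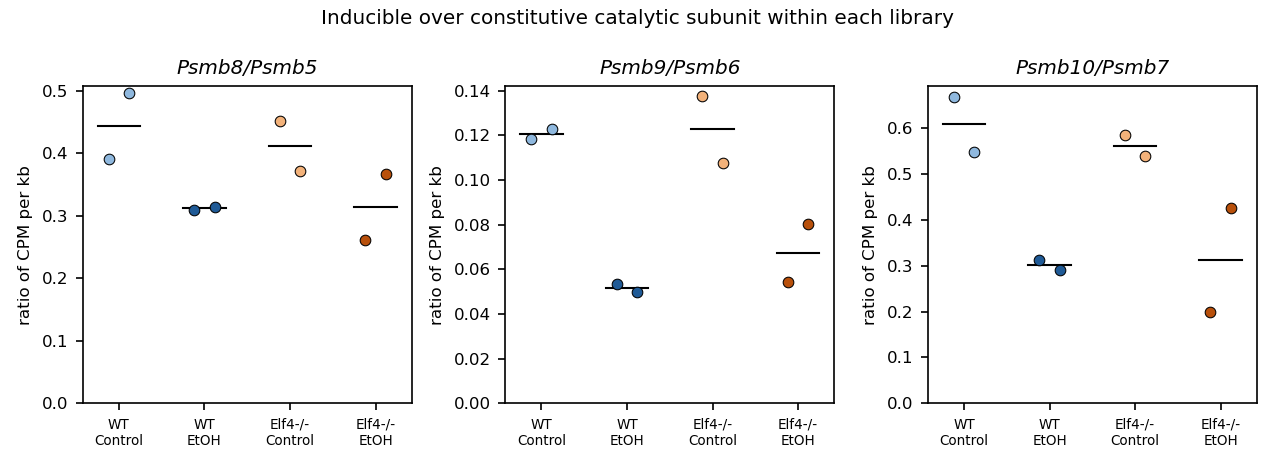
Ratio of an inducible catalytic subunit to the constitutive subunit it replaces, in CPM per kilobase of transcript within each library (axis from 0 in each panel), with points for libraries and lines for group means. In each pair and genotype both EtOH libraries lie below both Control libraries, with Psmb9/Psmb6 between 0.0497 and 0.0804 on EtOH against 0.108 to 0.138 on Control. A lower ratio can reflect a lower inducible or a higher constitutive level.

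The members outside these 3 classes were mixed. Psme4, which encodes the PA200 activator, was at 30.4 and 34.6 CPM in WT-Control against 65.7 and 61.5 in WT-EtOH, a log2 fold change of 0.97 ± 0.25 (edgeR adjusted p = 0.022), and at 41.6 and 34.8 against 66.6 and 40.5 CPM in Elf4-/-, where the diets overlapped. Psme3, the nuclear PA28 gamma, had 0.18 ± 0.19 and 0.12 ± 0.19. Of the chaperones that assemble the base, Psmd5 was called higher in WT (0.89 ± 0.21, edgeR adjusted p = 0.018) and had 0.83 ± 0.21 in Elf4-/- (adjusted p = 0.067), Psmd10 had 1.07 ± 0.37 in WT from 14 to 69 counts per library (adjusted p = 0.065), and Psmd9 had 0.15 ± 0.23. Psmc3ip, which shares part of its name with an ATPase but acts in meiotic recombination, fell by 0.86 on the log2 scale in WT (SE 0.25, edgeR adjusted p = 0.035), a call that DESeq2 did not make (adjusted p = 0.067, within 0.034 to 0.27 over 13 alternatives), and it shares 385 of 1818 exon bases with Mlx. Psme3ip1 and Psme2b, also matched by name, had WT values of -0.01 ± 0.21 and 0.07 ± 0.27, and each changed sign under at least 1 alternative. Psma5-ps was listed at 0 counts in both WT-Control libraries and at 16 and 31 in those of WT-EtOH, at least 4.66-fold higher against a floor of 3 counts per library (edgeR adjusted p = 0.0097), but a pseudogene can draw reads from its parent Psma5, so this count is uncertain.

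The diet effect did not differ detectably between the genotypes. Of 13993 genes, 0 were called by the interaction term in edgeR (percent called 0), 1 of the 45 members had an unadjusted p below 0.05, which was Psma5-ps with its few counts, and DESeq2 also called 0 members. The interaction, coded as the diet effect in Elf4-/- minus that in WT, was -0.65 ± 0.30 on the log2 scale for Psmd13 (edgeR adjusted p = 0.51), 0.57 ± 0.29 for Psmc6 (0.56), -0.31 ± 0.30 for Psmc1 (0.78), -0.52 ± 0.40 for Psmb4 (0.70), -0.44 ± 0.39 for Psma5 (0.76) and 0.38 ± 0.26 for Psmb3 (0.67). With standard errors of 0.26 to 0.40 for these genes, differences between genotypes of the sizes listed or smaller were not detectable. Among the inducible genes the interaction was 0.55 ± 0.37 for Psmb9 (edgeR adjusted p = 0.66). Under TMM the log2 fold change was larger in WT for 11 and in Elf4-/- for 20 of the 31 constitutive genes. The direction depended on the scaling. Under library totals the median interaction was -0.35 for the core and -0.45 for the regulatory particle. The median of all genes moved by -0.46 under that scaling. Across these 31 genes the WT and Elf4-/- folds, which share no library, had a Spearman's rho of 0.92 and a Pearson's r of 0.93 (0.91 and 0.89 without Psmd13), given as a description, since genes of a complex in the same libraries are not independent.

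Between genotypes on the same diet, no member was called. On EtOH, 20 genes in all were called in either direction (0.143%), and 0 of 45 members by edgeR and by DESeq2, with 1 member at an unadjusted p below 0.05. That was Psmd13, whose Elf4-/- over WT log2 fold change was -0.67 ± 0.20 (edgeR adjusted p = 0.26). The next regulatory particle genes were Psmd3 (-0.36 ± 0.20, adjusted p = 0.58) and Psmd11 (-0.36 ± 0.24, 0.65), and the leading core genes were Psma6 (-0.30 ± 0.21, 0.66), Psmb4 (-0.28 ± 0.28, 0.79) and Psma5 (-0.26 ± 0.27, 0.80), all from edgeR. The median log2 fold change was 0.03 for the core, -0.08 for the regulatory particle and 0.16 for the inducible genes. On the Control diet, 2 genes in all were called (0.0143%), and 0 of 45 members by edgeR and by DESeq2. The only member with an unadjusted p below 0.05 was again Psma5-ps. The smallest p-values in the core belonged to Psmb3 (-0.20 ± 0.19), Psma7 (-0.21 ± 0.20) and Psmb5 (-0.17 ± 0.18), all of which turned positive under scaling by library totals (0.027, 0.021 and 0.055). In the regulatory particle they belonged to Psmd6 (-0.34 ± 0.20), Psmd7 (-0.40 ± 0.26) and Psmc6 (-0.26 ± 0.21), with edgeR adjusted p of 0.78 to 0.85.

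Because subunits assemble in fixed proportions, the spread of their transcript levels was also described, per kilobase of a single principal transcript so that genes of different length can be compared. In Control livers the 31 constitutive genes spanned a wide range, with a standard deviation of 1.35 and 1.30 log2 units in the WT-Control libraries and 1.29 and 1.31 in the Elf4-/- Control libraries. In the EtOH libraries it was 1.02 and 1.01 in WT and 1.07 and 1.15 in Elf4-/-, so each EtOH library had a narrower spread than every Control library. Without Psmd13 the values were 1.23 and 1.18, 1.18 and 1.17 on Control against 1.01 and 0.99, 1.02 and 1.12 on EtOH, and the order remained. Psmd13 was the lowest gene in each Control library, at a mean of 3.68 CPM per kb in WT-Control and 3.59 in Elf4-/- Control, and in the EtOH libraries the lowest was Psmd1, the base scaffold, at 8.26 and 7.02. Psmb6 was the highest in every library but 1, with group means of 168 to 221 CPM per kb. Genes with a low Control level tended to have the larger fold: the WT fold had a Spearman's rho of -0.60 with the level in Elf4-/- Control, and the Elf4-/- fold one of -0.60 with the level in WT-Control, each over 31 genes and with no library in common (-0.56 and -0.56 without Psmd13). The correlation of the WT fold with transcript length was 0.27 and with GC content -0.02. These are descriptions across genes, without a test.

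**Figure D5:**
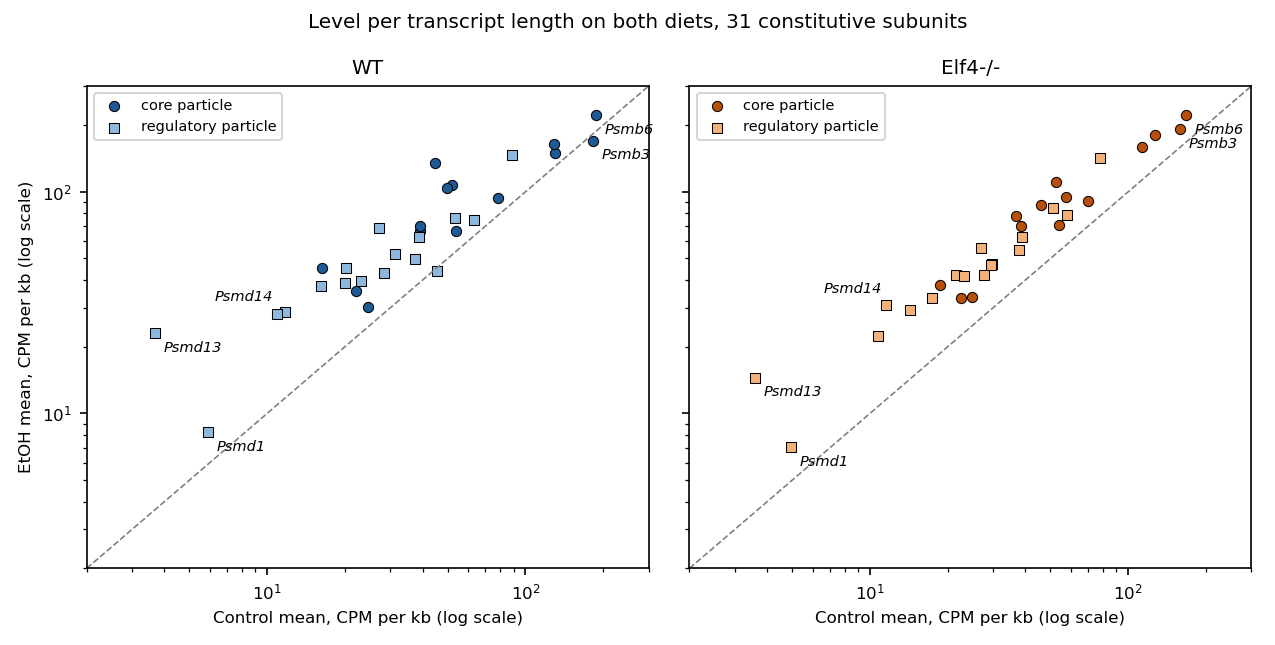
Mean level of the 31 constitutive subunit genes on EtOH against that on Control, in CPM per kilobase of transcript (both axes log scale), for WT and Elf4-/-, with circles for the core, squares for the regulatory particle and a dashed line of equal levels. Low genes such as Psmd13 (3.68 and 23.1 in WT) lie farther above the line than high genes such as Psmb6 (188 and 221 in WT).

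Constitutive proteasome genes are known to be controlled together by Nfe2l1 through an antioxidant response element in their promoters, and several of these promoters also carry a CCAAT box. The 250 bases upstream of the annotated start were searched on both strands for TGACNNNGC, the core letters of that element, and for CCAAT, in RefSeq promoters of GRCm38.p6, which were found for 38 of the 45 members. TGACNNNGC was in a promoter of 11.5% of all 27025 genes with a promoter. It was in a promoter of 4 of 25 core and regulatory particle genes (16%), which were Psmb6, Psmb5, Psmc6 and Psmd12. Among the 13 of these 25 genes called higher in WT it was present in 1, and among the 12 not called in 3. CCAAT was in a promoter of 37.5% of all these genes and of 10 of the 25, comprising 6 of 13 called and 4 of 12 not called. Both motifs are short, and a match is only a run of letters. The upstream sequences are shown for the catalytic genes Psmb6 (chr11:70525107-70525356, plus strand) and Psmb5 (chr14:54618023-54618245, minus strand), which carry TGACNNNGC and had small diet values, for Psmd14 (chr2:61711444-61711693, plus strand), which was called in both genotypes and carries CCAAT on the opposite strand, and for Psmb4 (chr3:94886962-94887208, minus strand), the core gene with the largest WT value and neither motif in the 250 bases. Capitals mark the matched letters, 5′ to 3′ on the gene's strand. All 250 bases were searched in each, but annotated exon bases at the 3′ end are not printed, which leaves 247 bases for Psmb4 and 223 for Psmb5.
Psmb6: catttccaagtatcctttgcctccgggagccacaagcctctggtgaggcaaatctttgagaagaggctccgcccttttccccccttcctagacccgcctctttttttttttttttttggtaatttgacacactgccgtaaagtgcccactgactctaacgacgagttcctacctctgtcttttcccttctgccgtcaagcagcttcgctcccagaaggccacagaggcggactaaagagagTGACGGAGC
Psmb5: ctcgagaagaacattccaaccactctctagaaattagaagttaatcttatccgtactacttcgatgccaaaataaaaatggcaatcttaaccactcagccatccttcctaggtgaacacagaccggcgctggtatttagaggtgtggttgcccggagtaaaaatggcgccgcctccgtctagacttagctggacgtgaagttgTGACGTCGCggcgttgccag
Psmd14: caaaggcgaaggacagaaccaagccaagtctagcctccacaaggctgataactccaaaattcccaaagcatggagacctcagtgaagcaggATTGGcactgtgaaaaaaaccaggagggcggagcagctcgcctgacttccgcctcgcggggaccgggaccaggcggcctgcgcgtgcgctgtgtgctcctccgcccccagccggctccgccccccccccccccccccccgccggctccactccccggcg
Psmb4: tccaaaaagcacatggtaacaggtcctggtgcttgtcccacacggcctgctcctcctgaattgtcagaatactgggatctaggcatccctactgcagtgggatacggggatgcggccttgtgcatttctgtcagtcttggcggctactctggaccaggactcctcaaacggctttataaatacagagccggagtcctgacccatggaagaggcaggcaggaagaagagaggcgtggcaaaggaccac

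The genes that work beside the proteasome were read from a list of 34, of which 33 were in the table and tested. In WT, EtOH raised 11 of the 33 and lowered 0 (median log2 fold change 0.38), and in Elf4-/- it raised 5 and lowered 0 (median 0.41), against the same background of 10.8% and 1.71% called higher. Ubqln2 and Ubqln1, which shuttle ubiquitinated proteins to the proteasome, led in WT. Ubqln2 was at 4.10 and 6.07 CPM in WT and 4.51 and 5.82 in Elf4-/- livers on Control, and 16.9 and 21.2 in WT and 14 and 11.4 in Elf4-/- livers on EtOH, with log2 fold changes of 1.90 ± 0.30 in WT and 1.31 ± 0.30 in Elf4-/- (by edgeR, adjusted p = 0.0037 and 0.049). Ubqln1 rose by 1.24 ± 0.20 in WT and 0.92 ± 0.20 in Elf4-/- (edgeR adjusted p = 0.0038 and 0.041). Adrm1, the ubiquitin receptor Rpn13, rose by 1.09 ± 0.19 and 0.95 ± 0.19 (edgeR adjusted p = 0.0056 and 0.035). Pomp, the chaperone that matures the core, was at 60.0 and 84.8 CPM in the WT livers on Control against 129 and 131 on EtOH, and 70.3 and 80.1 in the Elf4-/- livers on Control against 153 and 138 on EtOH, rising by 0.84 ± 0.22 and 0.95 ± 0.22 (edgeR adjusted p = 0.023 and 0.049). Vcp, the p97 unfoldase, was the other gene called in both genotypes (1.01 and 0.91).

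Ubiquitin itself was part of this list. The polyubiquitin gene Ubb and the fusion gene Rps27a were called higher in WT, by 1.30 ± 0.33 and 1.08 ± 0.23 on the log2 scale (edgeR adjusted p = 0.022 and 0.011). Neither was called in Elf4-/-, where Ubb had 1.04 ± 0.33 (edgeR adjusted p = 0.11) and Rps27a 0.34 ± 0.23 (adjusted p = 0.42). Elf4-/- EtOH replicate 1 had 786 CPM of Ubb, within the 682 to 799 of WT-EtOH, while replicate 2 had 396. Further WT calls were Uchl5 (0.84), Zfand5 (0.75) and Ngly1 (0.71). The transcription factor gene Nfe2l1 was at 80.0 and 71.0 CPM in WT and 66.6 and 69.1 in Elf4-/- livers on Control, and 106 and 104 in WT and 110 and 88.2 in Elf4-/- livers on EtOH. Its diets did not overlap, but its log2 fold changes of 0.48 ± 0.19 and 0.55 ± 0.19 did not pass (edgeR adjusted p = 0.10 and 0.14). Between genotypes no gene of the list was called by edgeR. Among the smaller p-values were those of Ubqln2 (-0.59 ± 0.27) and Rps27a (-0.42 ± 0.23) on EtOH, with edgeR adjusted p of 0.49 and 0.57, and those of Ufd1 (-0.30 ± 0.19) and Nfe2l2 (0.38 ± 0.24) on Control, both at 0.79.

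The interferon regulators and peptide-loading genes that usually accompany the inducible subunits were read from a list of 15, of which 14 were tested. In WT, EtOH raised 0 and lowered 3 of the 14 (median -0.20), against 10.8% of all genes called lower, and in Elf4-/- it raised and lowered 0 by edgeR. Without adjustment, 6 of the 14 had p below 0.05 by edgeR in WT and 3 in Elf4-/-, against 5090 and 2966 of all 13993 genes. In WT 5 of the 14 log2 fold changes were positive and 9 negative. Ifngr1 (0.56) and Ifngr2 (0.81) were among the 6 and were higher on EtOH. Irf1, the interferon-induced factor that acts on Psmb9 and Tap1, was at 81.5 and 76.7 CPM in the WT livers on Control against 40.2 and 38.8 on EtOH, and 65.6 and 58.6 in the Elf4-/- livers on Control against 33.5 and 42.5 on EtOH. Every EtOH library was below every Control library, with log2 fold changes of -1.0 ± 0.19 in WT and -0.71 ± 0.19 in Elf4-/- (by edgeR, adjusted p = 0.0070 and 0.072). Stat2 and Nlrc5, a transactivator of class I genes, were the other WT calls, at -0.92 ± 0.24 and -0.72 ± 0.21 (edgeR adjusted p = 0.024 and 0.034). In Elf4-/- Ifngr1 (0.67 ± 0.22) and Tapbp (0.51 ± 0.19) had the next smallest p-values and did not pass (edgeR adjusted p = 0.12 and 0.16). Between genotypes none was called: Stat2 (0.53 ± 0.24), Nlrc5 (0.42 ± 0.21) and Erap1 (0.33 ± 0.17) led on EtOH and Ifngr1 (-0.47 ± 0.22), Irf1 (-0.35 ± 0.19) and Ifngr2 (0.61 ± 0.33) on Control, with edgeR adjusted p of 0.48 to 0.75.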

How the data were processed

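Liver RNA of 8 libraries in 4 groups of 2 was measured by RNA-seq. Per the study's methods and processing notes, the authors extracted RNA with Trizol, sequenced it paired-end on an Illumina HiSeq, aligned reads to mm10 with HISAT2, sorted them with SAMtools, counted them per gene with HTSeq and tested with DESeq2; versions, annotation and strand setting are not given in the sources used here. The deposited values are raw counts per gene. Counts were filtered by filterByExpr, scaled by TMM and tested in edgeR 4.0.16 (R 4.3.3) by a quasi-likelihood fit over all 8 libraries, with Benjamini-Hochberg adjustment over 13993 genes and a threshold of 0.05. SE is the log2 fold change divided by the root of F. The common biological coefficient of variation was 22.7%. The test was tried on simulated data. DESeq2 1.42.0, other scalings, filters, sample sets, a replicate block and single-library omissions were alternatives. Transcript lengths and overlaps came from GENCODE M21 (GRCm38).

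Members, classes and gene lists were chosen with earlier results of these data known. Named genes were the catalytic, inducible and activator members, the 3 smallest p-values per particle and contrast, up to 10 called members, each member of another kind, and the 3 smallest p-values of the other lists per group contrast with Nfe2l1, Pomp, Irf1 and Tap1. Some genes that this rule names are not reported here. Psmc5, Psmd1, Psmd6, Psmd8, Psmc2, Psmc3 and Psmd12 and other called genes of the lists were added after their values were seen. Same-numbered libraries did not deviate together, so numbers were not taken as pairs.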

Additional observations from a re-analysis of the deposited data

How the results depend on the processing

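With 2 libraries a group, the direction of a fold was steadier than its call. Its size moved too: leaving out 1 library gave log2 fold changes of 1.19 to 2.16 for Psmb4 in WT. Of the results for single named genes, 836 were on the same side of the threshold and in the same direction under an alternative as in the fit described, 92 lost the call, 9 gained one and 23 changed sign. Only a result called in the fit described could lose its call, and no genotype or interaction result was called there. The 836 therefore include results that stayed uncalled. Scaling by library totals moved the median of all genes by 0.43 (log2) for diet in WT, -0.03 for diet in Elf4-/-, -0.23 for genotype on EtOH, 0.23 for genotype on Control and -0.46 for the interaction, and the values under it are to be read against these shifts. Where no value shows a cause, the cause was not tested.

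Under library totals the calls in WT were 13 core genes higher and 0 inducible genes lower, and in Elf4-/- 1 core gene; the WT medians became 0.95 (core), 1.18 (regulatory particle) and 0.48 (inducible), those for genotype -0.20 and -0.32 on EtOH and 0.20 and 0.14 on Control (core and regulatory particle), and those of the interaction -0.35, -0.45 and -0.20. Totals without mitochondrial genes gave WT medians of 0.64 and 0.87, interaction medians of -0.016 and -0.11, and 0 inducible genes lower in WT. In Elf4-/- DESeq2 called 5 core genes, and a fit of only the compared libraries called 0 core and 1 regulatory particle genes, with fewer libraries to estimate the spread.

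Deviations of same-numbered libraries correlated between -0.13 and 0.11 over 9398 genes, and -0.13 between the WT groups. With the replicate number as a block, 15 of 31 constitutive genes were called in WT, and in Elf4-/- 1 core and 2 regulatory particle genes; a crossed block in WT, chosen after seeing the data, called 16.

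Leaving out 1 library at a time gave 2 to 6 core, 4 to 8 regulatory particle and 0 to 0 lower inducible calls in WT, and 0 to 3, 0 to 11 and 0 to 1 in Elf4-/-. Medians ranged from 0.40 to 0.65 (WT core), 0.70 to 0.92 (Elf4-/- regulatory particle), -0.30 to 0.28 (Elf4-/- inducible), -0.17 to 0.030 (genotype on EtOH, regulatory particle), -0.21 to 0.085 (genotype on Control, core), and -0.0472 to 0.21 and -0.11 to 0.10 (interaction, core and regulatory particle). A lone library left in a group was assumed to vary like the others.

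Library totals gave 0.15 for Psmb8 and 0.42 for Psme3ip1 in WT, 0.055, 0.021 and 0.027 for Psmb5, Psma7 and Psmb3 for genotype on Control, and -0.082 for the interaction of Psmb3; Psme3ip1 in WT was 0.12 without mitochondrial genes in the total, 0.021 with no filter and 0.0024 with a mean of at least 10 counts. Leaving out 1 library gave WT ranges of -0.55 to 0.064 (Psmb8), -0.070 to 0.25 (Psmb10), -0.013 to 0.24 (Psme1), -0.11 to 0.24 (Psme2), -0.23 to 0.18 (Psme3ip1) and -0.22 to 0.43 (Psme2b), and Elf4-/- ranges of -0.30 to 0.22 (Psmb8), -0.71 to 0.28 (Psmb10) and -0.39 to 0.18 (Psmd9).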
